A study of Mus musculus with 14 samples.

Results

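The 27 genes described here encode the enzymes of cholesterol synthesis, the proteins that control the transcription factor SREBP2, and a few further SREBP2 targets. They were taken from a named list of genes, out of 24411 genes in the deposited count files. That list was chosen with earlier results of these data known. The shares set beside those of all genes below therefore describe the 27 genes and do not test them. All 27 were found, and all 27 were among the 9644 genes that passed the filter on low counts.

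RNA was sequenced from the livers of male littermate mice aged 5 to 7 months. Every mouse carried floxed alleles of Rbbp5 (flox/flox), which encodes a shared subunit of the MLL/COMPASS family of histone H3K4 methyltransferases. Mice without Alb-CRE (-/-) served as WT, and mice with 1 copy of Alb-CRE (+/-) were the liver knockout, called LKO. The albumin promoter directs Cre mainly to hepatocytes, and whether the other liver cells of an LKO mouse kept the gene was not measured. Each mouse received an intraperitoneal injection of 0.05 mg/kg tunicamycin in 500 µl of 3% DMSO in PBS, or that vehicle alone, between 9 and 10 in the morning, and the liver was taken 8 hours later. The sample titles spell the genotype RRBP5 LKO and the design text spells it RBBP5. Vehicle was given to 3 WT and 4 LKO samples, and tunicamycin to 3 WT and 4 LKO samples. The labels do not say that each library came from its own mouse, so p-values measure the spread between these samples, which may be technical.

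Libraries held from 6507018 to 13519421 reads on genes, and 72.5 to 75.5% of them fell on the ribosomal RNA gene Rn45s, which left 1704479 to 3551398. The 27 genes took from 4235 to 16769 reads a library. LKO vehicle 3 and 4 differed by little more than counting noise (chi-square per degree of freedom 1.12, against 3.38 to 25.9 for the other 17 pairs within groups), so their reads were summed and counted as 1 sample, LKO vehicle 3+4. Rbbp5 itself stood at 5.19 ± 1.17 CPM in WT (SD, n = 3) and 2.94 ± 1.13 in LKO (n = 3) with vehicle, and at 5.37 ± 0.343 in WT (n = 3) and 2.86 ± 0.598 in LKO (n = 4) with tunicamycin. CPM is the read count scaled to a common library size and uses library sizes scaled by edgeR's TMM factors. LKO vehicle 1 held 4.15 CPM of Rbbp5, above WT vehicle 1 at 4.07, so the groups overlapped there, and counts over the whole gene do not isolate the floxed part. Hepatocyte markers summed to between 19240 and 29890 CPM in every sample. In bulk liver, fewer cells of a type and less RNA per cell cannot be told apart.

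Cells make cholesterol from acetyl-CoA by way of mevalonate, farnesyl diphosphate, squalene and lanosterol, and the liver is a main site of this synthesis. SREBP2 is made as a membrane protein of the endoplasmic reticulum (ER), where Scap binds it. When ER sterol is low, Scap carries it to the Golgi, proteases release its DNA-binding part, and that part enters the nucleus and turns on the enzyme genes. When sterol is high, Insig1 or Insig2 holds Scap in the ER. Tunicamycin blocks the transfer of N-acetylglucosamine phosphate to dolichol, itself a product of the mevalonate pathway, and so stops N-linked glycosylation and stresses the ER.

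SREBP2 is known to bind sterol regulatory elements near gene starts, usually beside sites for NF-Y, which reads CCAAT, and Sp1, which reads GC boxes. RefSeq promoter sequences (build mm10) were matched for 23 of the 27 genes; Fdps, Fdft1, Sqle and Stard4 had no entry. The promoters of Hmgcs1, Insig1 and Sc5d are shown as examples from the genes that were higher in LKO than in WT livers after tunicamycin. Capitals mark matches, on either strand, to the sterol element TCACNCCAC, to CCAAT (printed as ATTGG where it lies on the opposite strand) and to the E-box CACGTG. Each line starts 220 bases before the RefSeq start and reads 5′ to 3′ on the gene's strand, from chr13:119690131-119690350 (plus strand), chr5:28071192-28071362 (plus strand) and chr9:42264301-42264520 (minus strand).
Hmgcs1: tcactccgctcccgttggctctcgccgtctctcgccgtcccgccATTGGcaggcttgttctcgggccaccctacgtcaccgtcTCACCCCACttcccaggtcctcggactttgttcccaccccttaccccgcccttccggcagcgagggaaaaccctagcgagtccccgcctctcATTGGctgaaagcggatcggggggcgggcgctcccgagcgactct
Insig1: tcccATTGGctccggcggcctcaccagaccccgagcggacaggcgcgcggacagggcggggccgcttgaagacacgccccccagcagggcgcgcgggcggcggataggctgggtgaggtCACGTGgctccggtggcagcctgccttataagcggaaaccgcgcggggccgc
Sc5d: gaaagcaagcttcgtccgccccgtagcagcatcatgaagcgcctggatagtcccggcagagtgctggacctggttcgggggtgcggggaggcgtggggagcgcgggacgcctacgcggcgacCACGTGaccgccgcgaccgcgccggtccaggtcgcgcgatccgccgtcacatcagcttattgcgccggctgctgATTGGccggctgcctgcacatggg
In Hmgcs1 the sterol element lay 137 to 129 bases before the start, between ATTGG matches at 176 to 172 and at 45 to 41. The E-box lay 101 to 96 bases before the start of Insig1 and 98 to 93 before that of Sc5d. Nsdhl, Mvk and Idi1 differed more than Sc5d between genotypes after tunicamycin and are not shown. Their promoters matched CCAAT but held neither the sterol element nor the E-box. Dhcr7, at 0.53 log2 units in that comparison, is not shown either, and its 3 promoter entries differed. The most upstream entry matched none of the marked patterns, the next held the E-box, and the last matched CCAAT. The promoters shown therefore do not stand for the whole group.

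The 23 matched genes had 30 promoter entries, with more than 1 entry for 5 of them, and a gene was counted if any of its entries held a match. Over the 250 bases before the start, both strands, CCAAT was present for 20 of the 23 genes (87%), against 40.6% of 7415 tested genes counted in the same way. The GC box GGGCGG was present for 19 (82.6%, against 64.4%), CACGTG in 6 (26.1%, against 10.3%) and TCACNCCAC in 1, that of Hmgcs1 (4.35%, against 1.39%). Matches were counted for each pattern on its own. These are matches of letters, not sites shown to be bound.

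Levels between genes are compared in the authors' FPKM, which is scaled by transcript length. Sc5d, the C5-desaturase near the end of the pathway, had the highest mean over the 13 samples at 26.1 FPKM, followed by Hmgcs1, the synthase that makes HMG-CoA, at 25.1, Insig1 at 17.1 and Idi1 at 15.7. Within LKO tunicamycin the order of the first pair turned, with Hmgcs1 at 37.0 ± 5.78 FPKM and Sc5d at 34.1 ± 2.11 (SD, n = 4), within their spread. Mvk, Srebf2, Aacs, Ggps1 and Mvd lay below 1 FPKM, with Mvd, the mevalonate diphosphate decarboxylase, lowest at 0.347. Mvd had only 2 to 28 reads a sample, so its values carry wide counting error. In mm10, per RefSeq, Sqle lies on chromosome 15 (59315092 to 59331193), Insig1 on chromosome 5 (28071412 to 28078662), Insig2 on chromosome 1 (121304353 to 121332662) and Srebf2 on chromosome 15 (82147269 to 82205379).

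**Figure D1:**
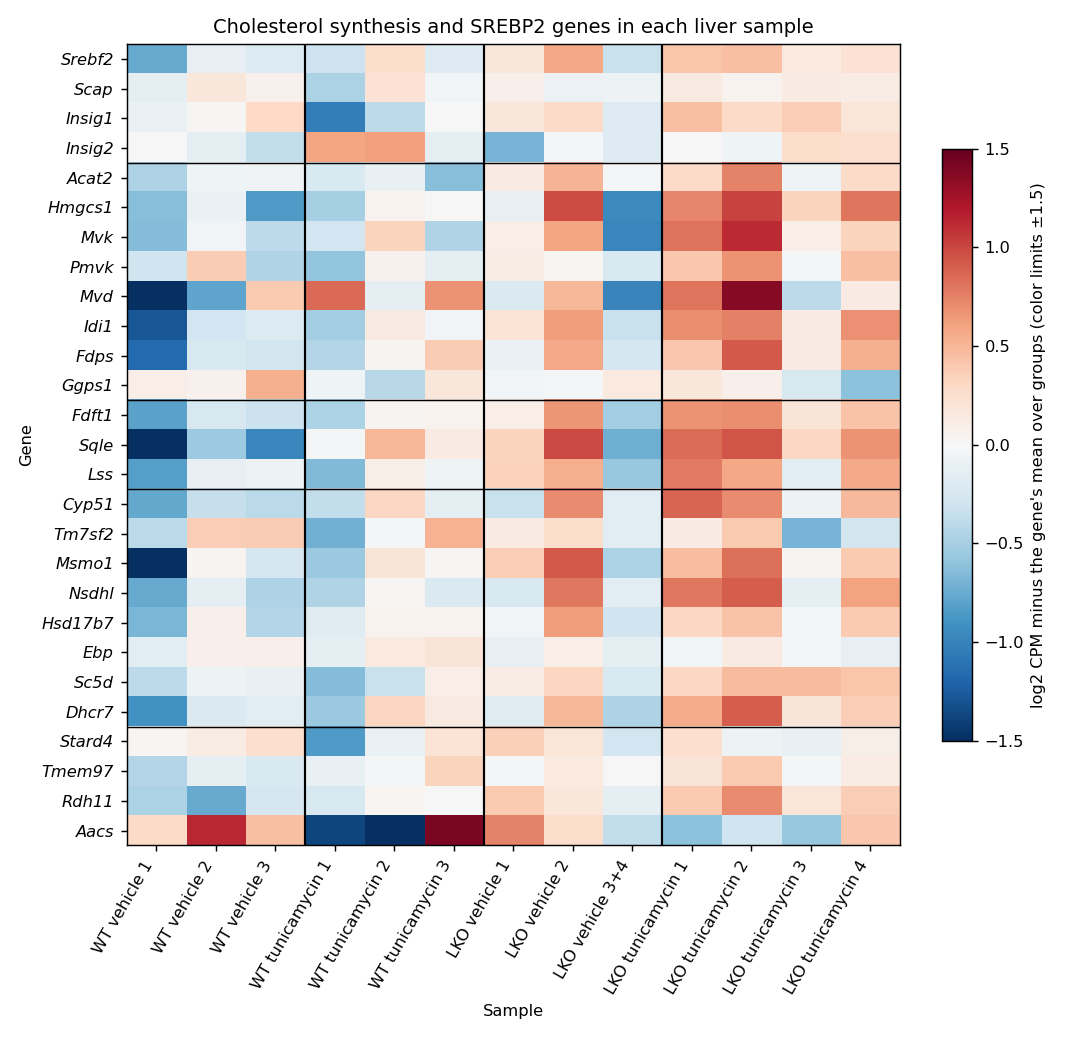
Log2 CPM of each of the 27 genes in each of the 13 samples, minus the gene's mean over the 4 groups; rows are ordered by role, vertical lines separate the groups, and colors stop at 1.5 in either direction. WT vehicle 1 is blue for most enzymes, LKO tunicamycin 1, 2 and 4 are mostly red, and LKO vehicle 2 and LKO vehicle 3+4 lie on opposite sides.

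The group means followed a common order for many of the genes. The highest mean CPM was that of LKO tunicamycin for 21 of the 27 genes (77.8%), against 27.6% of all genes tested. For 16 of the 27, the lowest mean was that of WT vehicle (29.8% of all genes tested). Among the 6 exceptions, Tm7sf2 and Ggps1 and the targets Stard4 and Aacs had their highest mean in WT vehicle, and Insig2 and Ebp in WT tunicamycin. The summed CPM of the 19 synthesis enzymes was 501 ± 99.2 with vehicle and 604 ± 115 with tunicamycin in WT (SD, n = 3 each), and 720 ± 286 with vehicle (n = 3) and 929 ± 144 with tunicamycin (n = 4) in LKO.

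Single samples moved many of these genes together. The enzyme sum was 399, 598 and 506 CPM in WT vehicle 1 to 3, and 471, 673 and 667 in WT tunicamycin 1 to 3. It was 648 in LKO vehicle 1, 1035 in LKO vehicle 2 and 478 in LKO vehicle 3+4, and 962, 1086, 739 and 927 in LKO tunicamycin 1 to 4. WT vehicle 1 was the lowest of 13 samples for 14 of the 27 genes (8.32% of all genes tested), and LKO tunicamycin 2 the highest for 13 (7.69%). LKO vehicle 2, the deepest library, had 22 genes above their own median over samples, and LKO vehicle 3+4 had 3. The median within-group SD was 0.37 on the log2 CPM scale for the 27 genes, against 0.26 for all genes tested. It was lowest for Ebp, the sterol isomerase, at 0.14, and highest for Aacs at 0.92.

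None of the 27 genes passed an adjusted p of 0.05 in any of the 5 comparisons (edgeR quasi-likelihood test, Benjamini-Hochberg adjustment over all 9644 genes). By DESeq2, run as an alternative, Sqle was called with tunicamycin in WT and between genotypes with vehicle, and Insig1 and Sc5d between genotypes after tunicamycin. How many of all genes DESeq2 called is not given here. The comparisons share samples: both tunicamycin comparisons enter the genotype comparisons through the same groups. The values below are therefore given side by side and not as support for each other.

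With tunicamycin in WT liver, Sqle, the squalene epoxidase and a rate-limiting step, was 2.35-fold higher. Mvd was 2.31-fold higher at very low counts (log2 1.21 ± 0.67, adjusted p = 0.417, edgeR), and the other members lay between -0.54 and 0.56 log2 units. The pair of Insig genes differed in opposite directions, with Insig1 lower and Insig2 higher. None of the 27 genes was called, in a comparison in which 0.363% of all genes were (35 genes). Of the 27, 18 were higher and 9 lower, against 51.7% of all genes higher. At an unadjusted p under 0.05, Sqle, Insig2 and Tmem97 were higher (3 genes, against 7.93% of all genes) and Insig1 lower (1 gene, against 6.85%). The median log2 fold change was 0.29 over the 27 genes and 0.01 over all genes. Without WT vehicle 1 the median of the 27 was 0.08, and with total count scaling 0.09, where that of all genes was -0.18.

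Sqle stood at 6.23, 14.2 and 10.5 CPM in WT vehicle 1 to 3, at 20.5, 29.5 and 22.7 in WT tunicamycin 1 to 3, at 26.3, 41.7 and 12.5 in LKO vehicle 1, 2 and 3+4, and at 37.4, 40.3, 26 and 33.5 in LKO tunicamycin 1 to 4. All 3 WT vehicle samples lay below all 3 WT tunicamycin samples, while LKO vehicle 3+4 fell in the WT vehicle range. For Sqle the log2 fold change with tunicamycin in WT was 1.23 ± 0.36 (SE; adjusted p = 0.125, edgeR).

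Insig1, an ER retention protein and itself an SREBP target, had 66.6, 72.8 and 88.2 CPM in WT vehicle and 34.7, 54.6 and 71.3 in WT tunicamycin. WT tunicamycin 1 and 2 were below every WT vehicle sample, and WT tunicamycin 3 lay inside their range. The difference was -0.50 ± 0.20 log2 units (SE; adjusted p = 0.256, edgeR). Insig2, its paralog, had 16.5, 15.1 and 12.8 CPM in WT vehicle and 25.0, 25.6 and 15 in WT tunicamycin, so again WT tunicamycin 3 lay in the vehicle range. That difference was 0.56 ± 0.20 (adjusted p = 0.203, edgeR). Without WT tunicamycin 3, both were called, Insig1 at -0.77 (adjusted p = 0.0257, edgeR) and Insig2 at 0.77 (adjusted p = 0.0183, edgeR). Without WT tunicamycin 1, Insig1 was at -0.27.

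Aacs, which activates acetoacetate for lipid synthesis, showed the same sample standing apart. It had 7.90, 14.3 and 8.89 CPM in WT vehicle and 2.34, 1.78 and 17.4 in WT tunicamycin. Its difference was -0.54 ± 0.56, and without WT tunicamycin 3 it was -2.31 (adjusted p = 0.00552, edgeR); this gene was chosen for mention from its values. In all, 3 of the 27 genes were called without that sample, and 615 of all genes.

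Fdps, which makes farnesyl diphosphate, had 14.4, 27.4 and 26.7 CPM in WT vehicle, 23.8, 33.4 and 42.3 in WT tunicamycin, 30.3, 48.0 and 27 in LKO vehicle, and 42.8, 61.3, 35.4 and 47.1 in LKO tunicamycin. The WT groups overlapped, at a difference of 0.54 ± 0.28 (adjusted p = 0.376, edgeR), which was 0.27 without WT vehicle 1. By role, 5 of 8 mevalonate and isoprenoid enzymes, 3 of 3 squalene and lanosterol enzymes and 6 of 8 enzymes from lanosterol to cholesterol were higher. The tunicamycin samples did not overlap the vehicle samples for Sqle, Tmem97 and Rdh11, all higher, which is 3 of 27 (11.1%) against 8.63% of all genes. Bile duct marker sums in WT were 8.49 to 42.5 CPM with tunicamycin and 8.60 to 11.7 with vehicle, and stellate and fibroblast sums 89.2 to 125 and 63.8 to 105. Of those that passed the filter, 2 of 2 bile duct markers were higher with tunicamycin, while 4 of 6 stellate and fibroblast markers were higher and 2 lower. All 8 Kupffer cell and macrophage markers were higher with tunicamycin in WT, with sums of 56.7 to 73.9 against 50.4 to 58.0. The part of these markers was not tested.

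**Figure D2:**
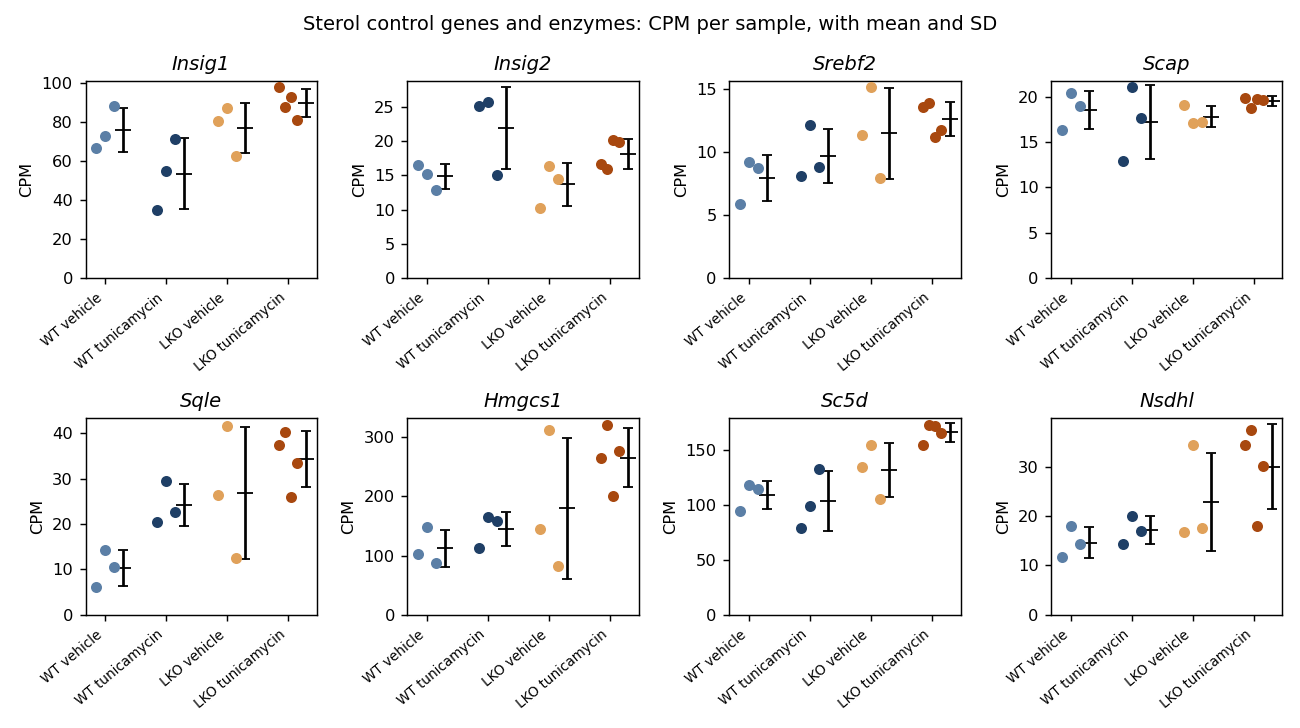
CPM per sample (points) of 4 control genes and 4 enzymes by group, with the mean and SD (bar) beside the points; each axis starts at 0. Sqle separates the WT groups, and LKO tunicamycin lies above WT tunicamycin without overlap for Insig1, Hmgcs1 and Sc5d.

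In LKO liver, the group mean with tunicamycin was again above that with vehicle for most of the genes, by small amounts. The largest differences at moderate or high expression were those of Hmgcs1, Dhcr7 and Fdps, at 0.56, 0.52 and 0.41 log2 units. No gene of the 27 was called, against 0.0311% of all genes (3 genes). There were 23 higher and 4 lower, against 50.8% of all genes higher, with a median of 0.31 against 0.00. At an unadjusted p under 0.05, Insig2 and Dhcr7 were higher (2 genes, against 5.83% of all genes) and 0 lower (6.33%).

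Hmgcs1 had 146, 312 and 81.6 CPM in LKO vehicle and 264, 320.2, 200.1 and 278 in LKO tunicamycin. LKO vehicle 2 lay near the top of the tunicamycin samples, so the groups overlapped, with a difference of 0.56 ± 0.32 (SE; adjusted p = 0.519, edgeR). It was 0.21 without LKO vehicle 3+4 and 1.23 without LKO vehicle 2. For Dhcr7, the reductase that makes cholesterol from 7-dehydrocholesterol, the values were 12.2, 19.6 and 9.97 CPM in LKO vehicle and 20.5, 26.2, 15.9 and 17.9 in LKO tunicamycin, a difference of 0.52 ± 0.24 (adjusted p = 0.405, edgeR). The same omissions gave 0.31 and 0.87 for Dhcr7, and 0.24 and 0.70 for Fdps. In WT, Dhcr7 had 7.30, 11.9 and 12.4 CPM with vehicle and 9.36, 17.4 and 15.3 with tunicamycin. Both genes overlapped between vehicle and tunicamycin in both genotypes.

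Insig2 had 10.2, 16.3 and 14.5 CPM in LKO vehicle and 16.6, 15.9, 20.2 and 19.9 in LKO tunicamycin. Its difference was 0.40 ± 0.18 (adjusted p = 0.396, edgeR), and LKO vehicle 2 lay among the tunicamycin samples. Without LKO vehicle 1 it was 0.24. For the difference in log2 units over the 27 genes, the median was 0.10 without LKO vehicle 3+4 and 0.47 without LKO vehicle 2. Not 1 of the 27 genes separated the groups without overlap (0 genes), against 5.03% of all genes higher without overlap. All 8 Kupffer cell and macrophage markers were also higher with tunicamycin in LKO, with sums of 60.2 to 118 CPM against 37.9 to 62.5 with vehicle, and their part in these values was not tested.

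**Figure D3:**
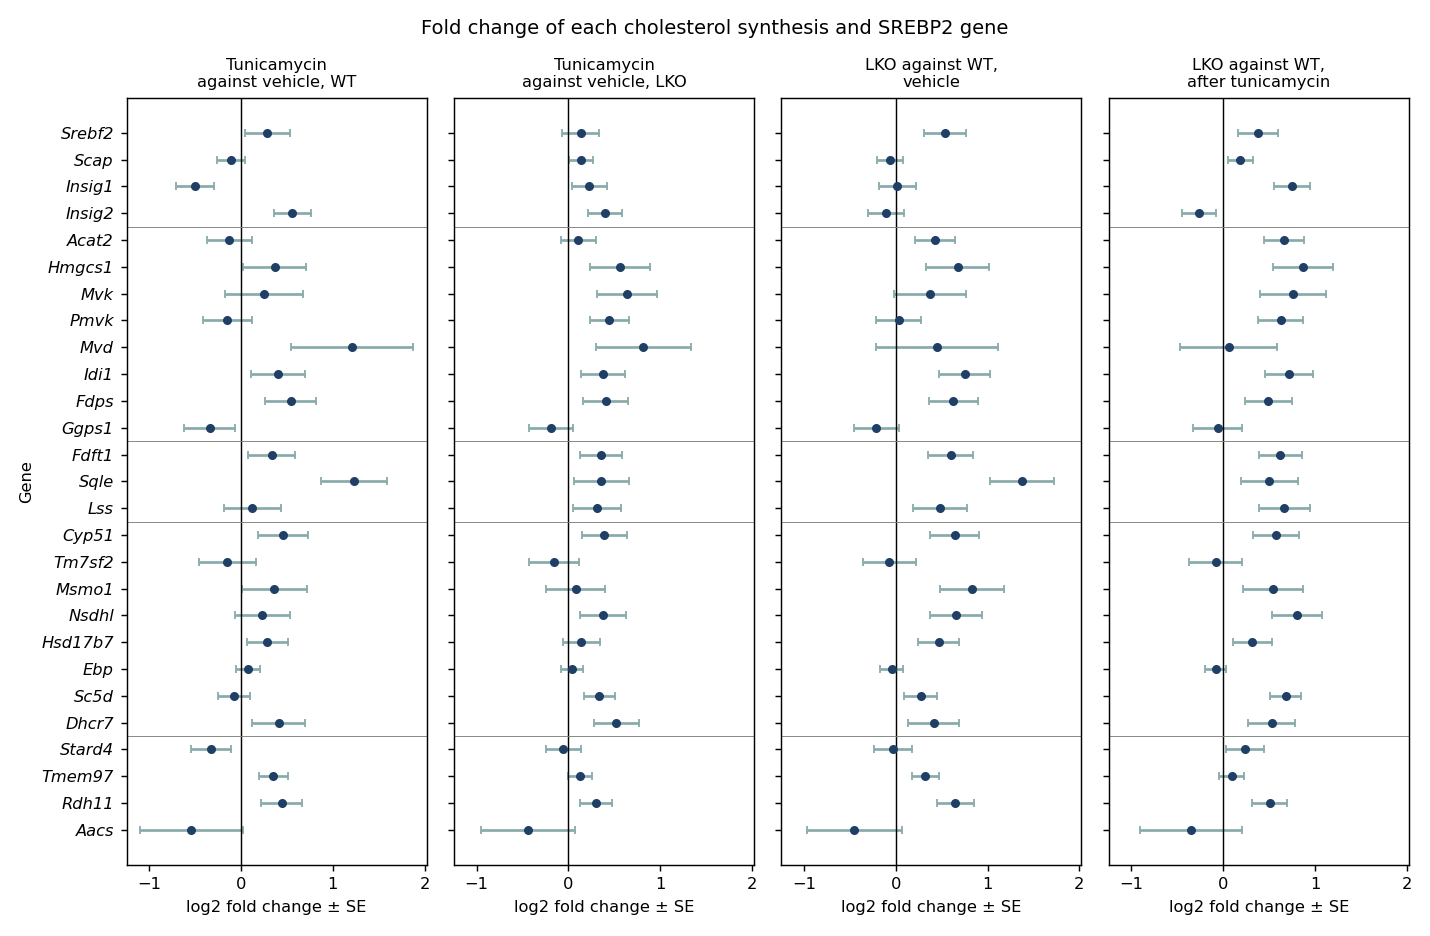
Log2 fold change (point) and standard error (bar) of each of the 27 genes in 4 comparisons from the edgeR fit; horizontal lines separate the roles. Most points lie right of 0 in each panel, with medians of 0.29, 0.31, 0.43 and 0.50, and no gene passed an adjusted p of 0.05.

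Between genotypes with vehicle, the group means of most squalene and sterol enzymes were higher in LKO than in WT livers, led by Sqle at 2.60-fold. Scap, Insig1 and Insig2 lay between -0.11 and 0.02 log2 units. No member of the group was called, against 0.0415% of all genes (4 genes). Of the 27, 20 were higher and 7 lower, against 50.9% of all genes higher, and the median was 0.43 log2 units against 0.00. At an unadjusted p under 0.05, 10 were higher (37%, against 4.71% of all genes) and 0 lower (3.44%).

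For Sqle the difference was 1.38 ± 0.35 (SE; adjusted p = 0.26, edgeR). It was 0.88 without LKO vehicle 2 and 1.74 without LKO vehicle 3+4, where Sqle was called (adjusted p = 0.0204, edgeR). With a sample left out, 0 to 17 of all genes were called in this comparison. Msmo1, the C4-methyl oxidase, had 16.5, 49.9 and 40.5 CPM in WT vehicle, 32.9, 55.5 and 49.1 in WT tunicamycin, 62.6, 92.3 and 34.8 in LKO vehicle, and 66.9, 86.0, 49.9 and 64.0 in LKO tunicamycin. LKO vehicle 3+4 lay inside the WT vehicle range, and the difference with vehicle was 0.83 ± 0.35 (adjusted p = 0.555, edgeR), or 0.44 without LKO vehicle 2. Idi1, the isopentenyl diphosphate isomerase, had 6.23, 12.7 and 13.4 CPM in WT vehicle, 10.7, 17.0 and 15 in WT tunicamycin, 17.9, 24.0 and 12.2 in LKO vehicle, and 25.3, 26.3, 16.9 and 25.0 in LKO tunicamycin. Its difference with vehicle was 0.75 ± 0.28 (adjusted p = 0.499, edgeR), or 0.45 without WT vehicle 1, and LKO vehicle 3+4 again overlapped WT.

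Srebf2, the gene of SREBP2 itself, had 5.87, 9.23 and 8.75 CPM in WT vehicle, 8.12, 12.2 and 8.80 in WT tunicamycin, 11.4, 15.2 and 7.95 in LKO vehicle, and 13.6, 13.9, 11.2 and 11.7 in LKO tunicamycin. Its difference between genotypes was 0.53 ± 0.23 with vehicle (adjusted p = 0.557, edgeR) and 0.38 ± 0.22 after tunicamycin (adjusted p = 0.421, edgeR). Without LKO vehicle 2 the first was 0.26, and without WT tunicamycin 2 the second was 0.57. The groups overlapped in both. Scap, the escort protein, was the steadiest of the control genes, at 16.3, 20.4 and 18.9 CPM in WT vehicle, 12.9, 21.1 and 17.6 in WT tunicamycin, 19.1, 17.1 and 17.2 in LKO vehicle, and 19.9, 18.7, 19.8 and 19.6 in LKO tunicamycin. Its differences in the 4 comparisons ran from -0.11 to 0.19 log2 units, and 0.19 became 0.01 without WT tunicamycin 1.

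LKO and WT vehicle samples did not overlap for 4 of the 27 genes (14.8%), against 7.52% of all genes higher without overlap. These were the thiolase Acat2, the lanosterol demethylase Cyp51, Tmem97, an ER protein that binds sterols, and the retinol dehydrogenase Rdh11. Rdh11 had 3.47, 2.82 and 4.08 CPM in WT vehicle against 6.52, 5.55 and 4.45 in LKO vehicle, at 0.65 ± 0.21 log2 units (adjusted p = 0.386, edgeR); this gene was chosen for mention from its values.

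The median over the 27 genes in this comparison was 0.13 without LKO vehicle 2, 0.22 without WT vehicle 1 and 0.66 without LKO vehicle 3+4. Markers of other cells also differed: all 6 stellate cell and fibroblast markers that passed the filter were higher in LKO vehicle, with sums of 111 to 151 CPM against 63.8 to 105 in WT vehicle, and the bile duct marker sums were 17.4 to 55.2 against 8.60 to 11.7. No marker was at 0 in any group. Their part in the results on the sterol genes was not tested.

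After tunicamycin, the median difference between the genotypes was 0.50 log2 units against -0.01 over all genes, with Hmgcs1 1.83-fold, Nsdhl 1.75-fold, Insig1 1.68-fold and Sc5d 1.60-fold higher in LKO. Not one of the 27 genes was called, against 0.861% of all genes (83 genes), and the smallest adjusted p were those of Sc5d and Insig1. In all, 22 were higher and 5 lower, against 48% of all genes higher. At an unadjusted p under 0.05, 11 were higher (40.7%, against 7.55% of all genes) and 0 lower (8.24%).

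Sc5d, chosen for mention from its values, had 94.5, 118 and 115 CPM in WT vehicle, 78.8, 98.6 and 133 in WT tunicamycin, 134, 154 and 105 in LKO vehicle, and 154, 172, 172 and 165 in LKO tunicamycin. All 4 LKO tunicamycin samples were above all 3 WT tunicamycin samples, with the narrowest gap to WT tunicamycin 3. The difference was 0.68 ± 0.17 (SE; adjusted p = 0.0672, edgeR). Insig1 had 80.5, 87.3 and 62.4 CPM in LKO vehicle and 97.8, 87.7, 92.6 and 81.0 in LKO tunicamycin, all 4 above WT tunicamycin at 34.7 to 71.3. Its difference was 0.75 ± 0.19 (adjusted p = 0.0782, edgeR). Without WT tunicamycin 3, both were called, Sc5d at 0.90 (adjusted p = 0.02, edgeR) and Insig1 at 1.01 (adjusted p = 0.0207, edgeR). Over all genes, calls in this comparison ran from 0 to 183 with a sample left out, against 83 with none left out.

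Hmgcs1 had 102, 148 and 87.9 CPM in WT vehicle and 112, 165 and 158 in WT tunicamycin, below all LKO tunicamycin samples. The difference after tunicamycin was 0.87 ± 0.33 (adjusted p = 0.211, edgeR). Nsdhl, the sterol C4-decarboxylase, had 11.6, 17.9 and 14.3 CPM in WT vehicle, 14.4, 20.1 and 17.0 in WT tunicamycin, 16.8, 34.4 and 17.6 in LKO vehicle, and 34.5, 37.5, 17.9 and 30.2 in LKO tunicamycin. LKO tunicamycin 3 lay in the WT range for Nsdhl, at a difference of 0.80 ± 0.27 (adjusted p = 0.17, edgeR).

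By role after tunicamycin, 7 of 8 mevalonate and isoprenoid enzymes were higher in LKO, all but Ggps1, which makes geranylgeranyl diphosphate. All 3 squalene and lanosterol enzymes and 6 of 8 enzymes from lanosterol to cholesterol were higher, with Tm7sf2, a C14-reductase, at -0.08 and Ebp at -0.08. Of the other targets, Rdh11 was at 0.50, Stard4, a cytosolic sterol carrier, at 0.24, Tmem97 at 0.09 and Aacs at -0.35. Groups did not overlap for 6 of the 27 genes, all higher in LKO (22.2%, against 6.34% of all genes higher): Insig1, Acat2, Hmgcs1, Fdft1, Sc5d and Rdh11.

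Stellate and fibroblast marker sums after tunicamycin were 104 to 163 CPM in LKO against 89.2 to 125 in WT, bile duct sums 35.8 to 111 against 8.49 to 42.5, and Kupffer cell and macrophage sums 60.2 to 118 against 56.7 to 73.9. Of the markers that passed the filter, all 6 stellate and fibroblast and all 8 Kupffer cell and macrophage markers were higher in LKO. Of the 2 bile duct markers that passed, 1 was higher (log2 1.36) and 1 lower (-0.23). Their part in the sterol results was not tested.

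Whether tunicamycin acted differently in the 2 genotypes was asked by the interaction, the tunicamycin difference in LKO minus that in WT. None of the 27 genes was called, against 0% of all genes (0 genes by edgeR; 474 genes, 4.91%, had an unadjusted p under 0.05). There were 14 above 0 and 13 below, against 46.5% of all genes above, with a median of 0.02 against -0.02 over all genes. At that p, 1 of the 27 was above 0 (2.13% of all genes) and 0 below (2.79%). Insig1 had the smallest p, at 0.73 ± 0.28 (SE; unadjusted p = 0.0178, adjusted p = 0.935, edgeR), with a tunicamycin difference of -0.50 in WT and 0.23 in LKO. Sqle lay lowest at -0.88 ± 0.47 (adjusted p = 0.981, edgeR), with 1.23 in WT and 0.36 in LKO, and was at -0.38 without LKO vehicle 2. The split of 14 and 13 turned on single samples: 23 were above 0 without WT vehicle 1 or without LKO vehicle 2, and 7 without LKO vehicle 3+4.

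Genes that process SREBP or sense sterol outside the 27 were described from a list of 14, of which 13 were tested. With tunicamycin in WT, 11 of 13 were higher (median 0.35), and Sel1l, the adaptor of the ER ubiquitin ligase Syvn1, was called at 0.82 (adjusted p = 0.0399, edgeR). Sel1l had 67.1, 70.3 and 71.9 CPM in WT vehicle and 154, 90.5 and 124 in WT tunicamycin, with no overlap. In LKO against WT after tunicamycin, 0 of 13 were higher (median -0.20), and Syvn1 at -1.88 (adjusted p = 0.0163, edgeR) and Sel1l at -0.79 (adjusted p = 0.024, edgeR) were called. With tunicamycin in LKO, 7 of 13 were higher and 0 called, and with vehicle 8 of 13 were higher in LKO and 0 called. The 2 called genes act in ER-associated degradation, so the list's called members are also ER quality control genes.

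SREBP1 drives fatty acid synthesis, the sister branch of lipid synthesis, and 13 of its 14 listed genes were tested. With tunicamycin in WT, 13 of 13 were lower, with a median of -0.53 and 0 called, while 18 of the 27 sterol genes were higher; the difference between the lists was not tested. Thrsp, a lipogenic nuclear protein, had the largest value of that list at -1.40 ± 0.60 (SE; adjusted p = 0.283, edgeR). It had 142, 204 and 139 CPM in WT vehicle and 20.6, 18.5 and 146 in WT tunicamycin, so WT tunicamycin 3 lay in the vehicle range here as for Insig1 and Insig2. For Aacs that sample lay above every WT vehicle sample. With tunicamycin in LKO, 10 of 13 were lower (median -0.09), and after tunicamycin 11 of 13 were higher in LKO than in WT (median 0.41), with 0 called in either. With vehicle, 6 of 13 were higher in LKO (median -0.02) and 0 called.

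For the ER stress genes, WT tunicamycin 3 did not look like vehicle. The median of the 14 listed genes, as log2 CPM minus each gene's mean over groups, was 1.29 in WT tunicamycin 1, 0.37 in WT tunicamycin 2 and 1.11 in WT tunicamycin 3, against -0.36 to -0.05 in WT vehicle. Of the 14, 7 were called higher with tunicamycin in WT, 0 were called with tunicamycin in LKO, and 8 were called lower in LKO when the genotypes were compared after tunicamycin. Ddit3, the transcription factor CHOP, had the largest values, at 3.71 in WT (adjusted p = 0.0399, edgeR) and -4.02 between genotypes (adjusted p = 0.0149, edgeR).

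**Figure D4:**
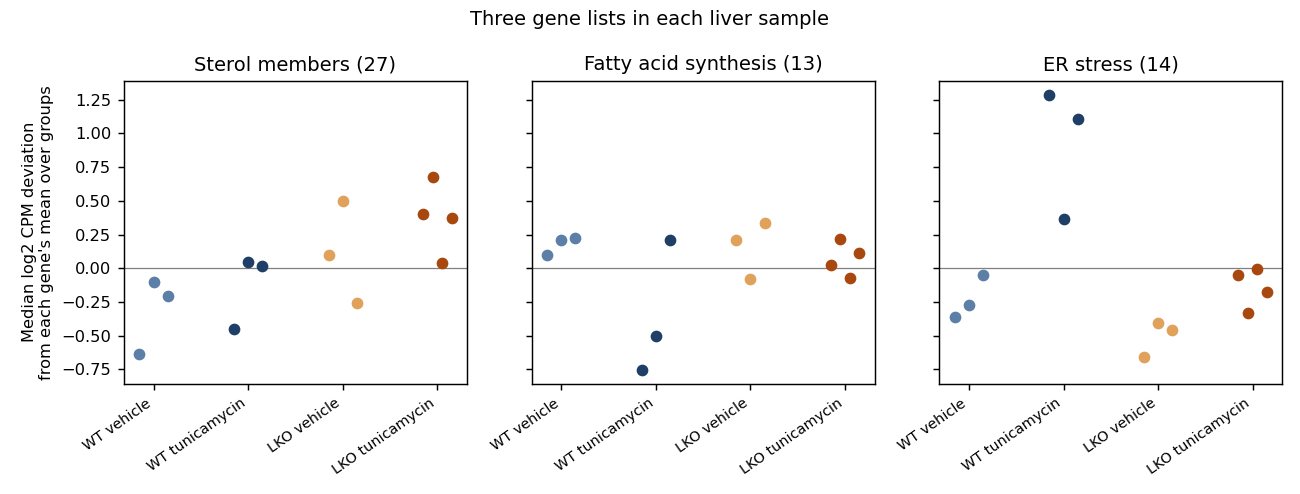
Median over each list's genes of log2 CPM minus the gene's mean over the 4 groups, one point per sample, for the 27 sterol genes, 13 fatty acid synthesis genes and 14 ER stress genes. WT tunicamycin 3 lies with the vehicle samples for fatty acid synthesis and with WT tunicamycin 1 for ER stress.

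Of the remaining lists, none held a called gene in any comparison. Sterol efflux and LXR targets had 4 of 10 higher with tunicamycin in WT and 5 of 10 higher in LKO after tunicamycin, with Abcg5, which exports sterol into bile, largest at -0.52 and 0.59. Among cholesterol ester and transport genes, 9 of 13 were higher with tunicamycin in each genotype, and 6 of 13 were higher in LKO than WT with vehicle and after tunicamycin alike. The isoprenoid and dolichol branch, which uses products of the mevalonate pathway, had 7 of 13 higher with tunicamycin in WT, 5 of 13 in LKO, and 3 of 13 higher in LKO than WT in both genotype comparisons.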

How the data were processed

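RNA of 14 mouse liver libraries was analysed, described as polyA RNA per the labels. The deposited counts are whole numbers of reads for each gene in STAR's format, per the file headers; the column with reads on the gene's strand was used. The authors also deposited FPKM. The submitters' processing notes name Trimmomatic, STAR, Cufflinks and the build mm10; versions and annotation are not given in the sources used here. There were 0 unused sample columns.

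LKO vehicle 3 and 4 were summed. Counts of 13 samples were fitted with edgeR 4.0.16 in R 4.3.3, with TMM scaling, filterByExpr by group (9644 of 24411 genes kept), 1 mean per group, quasi-likelihood tests and Benjamini-Hochberg adjustment over all genes tested, called under 0.05. Log2 CPM used a prior count of 2. On simulated data for LKO against WT after tunicamycin (9516 genes), 61% of genes changed by 1 log2 unit and 95% of those changed by 2 were recovered. Values in every sample are given for called members, for the 3 members with the largest fold change in each comparison whose mean log2 CPM was 3 or more, and for Srebf2, Scap, Insig1 and Insig2. The members and lists were chosen with earlier results of these data known. Alternatives were run with DESeq2 1.42.0 and limma 3.58.1, among other settings. Spring1 was not found in the files; Gramd1b, Pdss1, Fntb, Pnpla3, Des, Krt19, Krt7 and Epcam did not pass the filter.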

Additional observations from a re-analysis of the deposited data

Results flagged for a closer look

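Idi1 in LKO tunicamycin 3 stood at 16.9 CPM, well below the other 3 samples of its group at 25.0 to 26.3. The gap was large for a group of 4 samples, and chance marks about 1 in 20 such groups. All 27 genes were tried in this way, so a single flag can arise by chance.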

How the results depend on the processing

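The results were recomputed under 25 other settings, 13 of which left out 1 sample each. For members called, where the count was 0 in each comparison, the values were as follows. With tunicamycin in WT, 1 gene (Sqle) was called by the DESeq2 Wald test and with no filter on low counts, and from 0 to 3 with a sample left out (Sqle without LKO vehicle 3+4). For LKO against WT with vehicle, 1 gene (Sqle) was called by DESeq2 and with no filter, and from 0 to 1 with a sample left out. For LKO against WT after tunicamycin, 3 were called with total count scaling (Insig1, Acat2, Sc5d), 2 by DESeq2 (Insig1, Sc5d), 5 with no filter (Insig1, Hmgcs1, Idi1, Nsdhl, Sc5d), 3 with FPKM plus 1 and 3 with FPKM plus 0.1 in limma (Insig1, Acat2, Sc5d in both), and from 0 to 2 with a sample left out. Over all genes in that comparison, calls ran from 7 to 261 over the 12 settings that left out no sample. Not every setting's count over all genes is given here, so the member calls cannot be set against a general rise in calls. No member was called with tunicamycin in LKO or in the interaction under any setting. The cause of these differences was not tested. DESeq2 gave 24 of the 27 an adjusted p, and the FPKM filter kept 22.

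The median over members stayed positive in the 4 comparisons between groups under every setting; for the interaction it ran from -0.14 to 0.25 with a sample left out. With FPKM plus 1, 12 of 22 members were higher with tunicamycin in WT. Members above 0 in the interaction were 22 with total count scaling, and from 7 to 23 with a sample left out (10 without WT vehicle 2). Total count scaling moved the median of all genes to -0.18 with tunicamycin in WT, 0.14 for LKO against WT after tunicamycin and 0.13 for the interaction. Calls over all genes with a sample left out ran from 0 to 615 (tunicamycin in WT), 0 to 67 (in LKO), 0 to 17 (vehicle) and 0 to 183 (after tunicamycin), and with no filter were 289, 153, 84 and 261.

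Signs turned for some log2 values near 0. With vehicle, LKO against WT, Insig1 was -0.045 with all 14 libraries and -0.090 to 0.15 with a sample left out, Insig2 -0.25 to 0.039, and Scap 0.015 with FPKM plus 1, 0.025 with FPKM plus 0.1, 0.015 with FPKM plus 1 and no filter, and -0.16 to 0.0027 with a sample left out. With tunicamycin in LKO and a sample left out, Msmo1 ran from -0.22 to 0.46 (-0.060 without LKO tunicamycin 2), Sqle from -0.0023 to 0.85 and Srebf2 from -0.097 to 0.41. With tunicamycin in WT, Nsdhl was -0.013 in each FPKM setting, Srebf2 was -0.0063 with FPKM plus 1 and no filter, and with a sample left out Msmo1 ran from -0.0034 to 0.67, Sc5d from -0.30 to 0.086 and Scap from -0.28 to 0.061.

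Replicate numbers did not pair the samples: of 18 same-numbered pairs, 3 had a correlation of deviations over 0.1 (range -0.12 to 0.14). With the replicate number as a block, 0 members were called in each comparison, and the medians were 0.29, 0.32, 0.41, 0.52 and 0.05. Depth limits the low genes, such as Mvd with 2 to 28 reads.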
